A study of Mus musculus with 12 samples.

Results

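Male germ cells of the fetal mouse testis were compared between embryonic days E16.5 and E13.5, across every gene whose normalized count was 10 or more in at least 3 of the 6 libraries of these stages. That rule kept 19476 of the 55487 genes in the deposited table. A normalized count is the number of reads of a gene divided by 1 size factor per library. Per the labels the cells were gonocytes, the forerunners of spermatogonia, and were taken from testes of Mvh-Venus transgenic mice, in which the promoter of Mvh (Ddx4) drives a fluorescent protein in the germ line. The number of animals behind each library and any sorting gate are not given in the sources used here. Each stage had 3 libraries of RNA, and 6 further libraries of the series, from newborn and older mice, were not used. In their titles and source names the 6 samples are all WT (wild type), but the genotype tag reads Morc1 (+/-) for the E13.5 samples and Morc1 (-/-) for the E16.5 samples. Stage and tagged genotype therefore cannot be told apart in any value below. Nothing in the labels says that the replicates were separate animals or litters, so the p-values measure only the spread between these samples, which may be technical.

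Germ cells reach the gonad as primordial germ cells, which divide and express a set of pluripotency genes. In the fetal testis they leave the cell cycle and stay arrested until after birth. During the arrest they rebuild DNA methylation that was erased earlier, and small RNAs bound by PIWI proteins (piRNAs) direct part of it to transposons. Nodal and fibroblast growth factor (FGF) signals act on germ cells of the early fetal testis.

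Libraries are named by stage and by the number 1, 3 or 4 in the column heads, and 3 values per stage are always given in that order. The libraries held 48567599 to 51533747 reads on genes at E13.5 and 40946616 to 45641999 at E16.5. Genes with at least 1 read numbered 22678 to 22774 at E13.5 and 29291 to 30776 at E16.5. Where no library of a stage had more than 3 reads of a gene (3.15 to 3.26 normalized counts at E13.5), the gene was treated as at the floor, and a fold against it is given as a lower bound that covers counting error only. At E13.5 the floor held 1563 of the genes tested, and at E16.5 it held 35. The former had a median stage mean of 32.5 normalized counts at E16.5, and 231 of them reached a mean of 100 there.

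Differences between the stages were many. At an adjusted p under 0.05 (limma on log2(normalized count + 1), Benjamini-Hochberg adjustment over 19476 genes), 15942 genes were called (81.9%), of which 8310 were higher at E16.5 (42.7% of the genes tested) and 7632 lower (39.2%). The share of higher calls among all calls was 52.1%. It became 65.5% when libraries were scaled to equal totals and 39.2% when only genes with a mean of at least 100 were tested. A change of at least 2-fold was called higher for 6602 genes (33.9%) and lower for 4862 (25.0%). The stages did not overlap for 16333 genes (83.9%). Fold changes below are on the log2(normalized count + 1) scale, E16.5 minus E13.5, with the standard error (SE) of the fit, and "rose" and "fell" are used only of called genes. This scale understates changes of low genes.

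The share of genes that rose varied with the level of the gene. Among the 3765 genes with a mean under 30 normalized counts over the 6 libraries, 59.1% rose and 12% fell, with a median log2 fold change of 1.90. Of these 3765 genes, 1135 were at the floor at E13.5 and 35 at the floor at E16.5. The 1135 passed the filter only through their values at E16.5, so the rule fixed their direction. The shares of this range therefore describe the genes that passed. Of the 3138 genes with means of 1000 to 3000, 25.3% rose and 62.8% fell, and the median was -0.63. The 1032 genes at 10000 or above gave 24.6% and 65.5%, with a median of -0.63. The median over all genes tested was 0.07. Other scalings moved that median, to 0.21 (TMM), 0.25 (median of ratios), -0.07 (the poscounts formula) and 0.57 (equal totals), and every fold change moved with it. Shares for gene groups are therefore read against the 42.7% and 39.2% of all genes, and medians against 0.07. For groups of highly expressed genes these references are too lenient, since most genes at such levels fell. Among the 2560 genes with means of 3000 to 10000, 22.7% rose and 66.3% fell, with a median of -0.70. Groups were not matched to other genes by level.

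**Figure D1:**
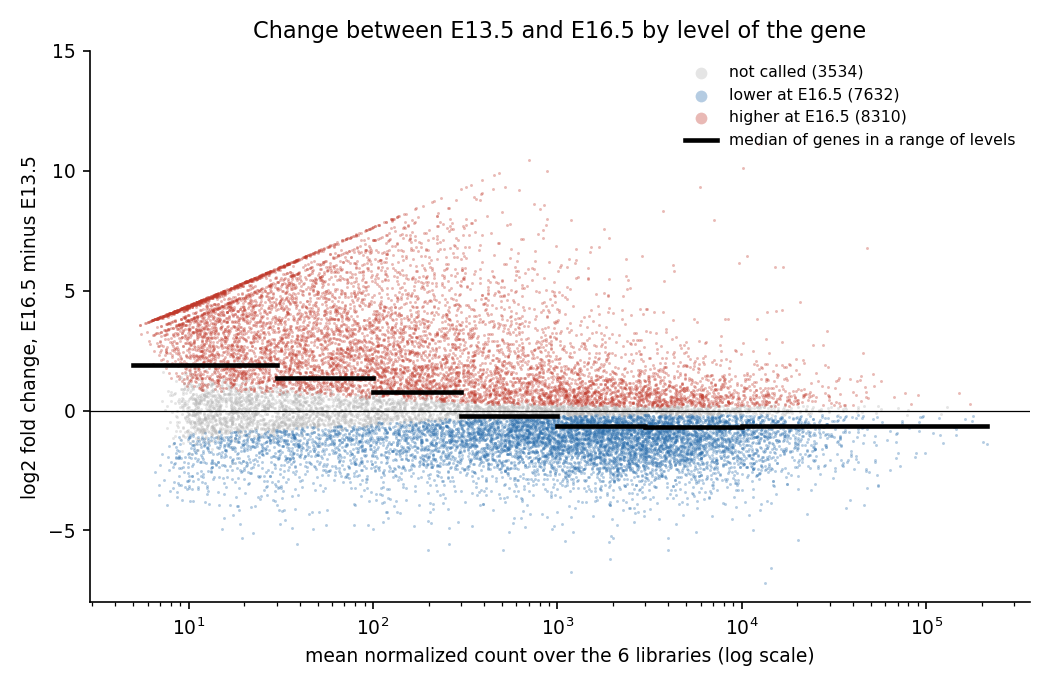
Each point is 1 of the 19476 genes, with its mean normalized count over the 6 libraries on a log axis and its log2 fold change (E16.5 minus E13.5) on the other. Black bars are medians within ranges of level, and they go from 1.90 for means under 30 to -0.63 for means of 10000 or above. The straight upper edge is formed by genes with 0 reads at E13.5. Of the 3765 genes under 30, 1135 were at the floor at E13.5 and passed the filter only through E16.5.

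Morc1, which codes for an ATPase of germ cell chromatin and is the gene named in the series title, was checked first. It lay at 1621, 1830 and 1640 normalized counts at E13.5 and at 32916, 32890 and 28328 at E16.5. The log2 fold change came to 4.21 (SE 0.08, adjusted p = 6.8e-10). Every E16.5 library was above every E13.5 library, so the libraries tagged Morc1 (-/-) held more reads of the gene than those tagged Morc1 (+/-). The reads do not say whether the transcript is functional.

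The 20 genes with the lowest log2 fold changes included the Nodal pathway genes Lefty1 and Lefty2, the FGF feedback genes Dusp4 and Etv1 and the pluripotency genes L1td1, Tdh and Mycn. Nodal, a TGF-beta family ligand, binds activin receptors with the coreceptor Tdgf1 (Cripto), SMAD proteins and Foxh1 carry the signal to target genes, and Lefty1 and Lefty2 are among those targets. The Lefty proteins in turn inhibit Nodal. Of 33 pathway genes tested, 8 rose and 21 fell, with a median of -0.95. By role, receptors and SMADs gave 0 higher and 8 lower of 9, antagonists and feedback genes 1 higher and 7 lower of 10, ligands and coreceptors 3 of each among 6, and target factors and convertases 4 higher and 3 lower of 8.

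Nodal itself was at 4299, 4237 and 4309 normalized counts at E13.5 and at 194, 341 and 217 at E16.5, which gives -4.13 on the log2 scale (SE 0.18, adjusted p = 1.7e-08). Tdgf1 went from 1260, 1167 and 1160 to 134, 114 and 121 (-3.27, SE 0.12). Gdf3, a related ligand that uses the same coreceptor, went from 2948, 3111 and 3224 to 331, 346 and 311 (-3.23, SE 0.09). For these 3 genes every E16.5 library was below every E13.5 library. Foxh1, the DNA-binding partner of SMADs in this pathway, had 3930, 4142 and 4057 normalized counts at E13.5 and 146, 170 and 123 at E16.5 (-4.79, SE 0.12, adjusted p = 1.3e-09). Among SMADs, Smad3 fell by 2.58, Smad4 by 0.93 and Smad2 by 0.79 on the log2 scale, and the receptor gene Acvr2b fell by 1.35. Acvr1b was not called (log2 fold change -0.41, adjusted p = 0.23).

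Lefty1 had the lowest log2 fold change of all genes tested. It is annotated on GRCm38 at chr1:180935022-180938400, plus strand, and lay at 24378, 26551 and 28328 normalized counts at E13.5 against 144, 168 and 242 at E16.5 (-7.18, SE 0.16, adjusted p = 8.7e-10). Lefty2, its neighbour at chr1:180893108-180899103, went from 28237, 28478 and 28828 to 227, 323 and 385 (-6.55, SE 0.16). Neither gene overlapped between the stages. Of the 50-base words in the transcripts of Lefty1, 17.9% also occur in another gene, and 12% of those of Lefty2 do, so their reads could in part be split or lost by the authors' counting. Ligands of the activin branch went the other way at low levels. Inhba was at 6.33, 0 and 8.41 normalized counts at E13.5 and at 21.0, 56.7 and 72.0 at E16.5 (3.46, SE 0.81; 2.45 without E13.5 library 3 and 4.06 without E13.5 library 4), and Inhbb, also a Sertoli cell gene, rose by 1.48 (SE 0.21).

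FGF signals are read out by a set of feedback genes that includes Sprouty genes, the phosphatase genes Dusp4 and Dusp6 and the transcription factor genes Etv1, Etv4 and Etv5. In these germ cells 12 of 13 such genes fell and 0 rose, with a median of -3.05. Dusp4 went from 3702, 3741 and 3925 normalized counts to 38.2, 49.3 and 68.1 (-6.20, SE 0.19, adjusted p = 2.4e-09). Etv1 went from 4132, 3900 and 3676 to 109, 90.2 and 96.6 (-5.30, SE 0.11), and Etv4 from 764, 736 and 658 to 46.8, 52.1 and 39.6 (-3.94, SE 0.18). These 3 genes did not overlap between the stages. Dusp6 fell by 3.60, Spry4 by 3.85 and Spry1 by 2.44 on the log2 scale. The exception was Egr1, an immediate early gene, at 4101, 3352 and 3786 against 2613, 3597 and 4600 (adjusted p = 0.64). Among receptors, Fgfr2 went from 3745, 3383 and 3228 to 314, 477 and 410 (-3.12, SE 0.14), Fgfr1 fell by 0.55, a call that was lost with equal totals (-0.04). Fgfr3 was not called (-0.55, adjusted p = 0.053), although it was by edgeR and DESeq2 (-0.53 in both) and without E16.5 library 3 (-0.78). Ligands were mostly higher, 7 of 11, at low levels. Fgf9, a ligand of the fetal testis, was at 17.9, 17.4 and 24.2 at E13.5 and at 119, 123 and 108 at E16.5 (2.51, SE 0.27).

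In bone morphogenetic protein (BMP) signalling most target genes also fell. The Id genes, which code for inhibitors of basic helix-loop-helix factors and are standard BMP targets, all fell. Id3 went from 7395, 7495 and 8329 to 141, 171 and 291 normalized counts (-5.33, SE 0.22, adjusted p = 1.2e-08), with every E16.5 library below every E13.5 library. Id2 fell by 3.56, Id4 by 2.13 and Id1 by 2.03. Of the homeobox targets, Msx1 fell by 4.10, whereas Msx2 was at 77.1, 93.6 and 71.5 at E13.5 and at 657, 644 and 653 at E16.5 (3.01, SE 0.16). Together 5 of 6 targets fell and 1 rose. Ligands and antagonists gave 7 higher and 4 lower of 12, at low levels (median stage mean of 31.9 at E13.5). Their median of 2.42 became -0.86 when only genes with a mean of at least 100 were tested. The ligand gene Bmp4 fell by 1.74 (SE 0.12) and Bmp8b, a germ cell ligand, rose by 4.88 (SE 0.72) from at most 8.44 normalized counts, with values of 5.51 without E13.5 library 1 and 3.89 without E13.5 library 4. Receptors and SMADs were split, 3 higher and 5 lower of 9. Bmpr1a fell by 2.02 and Bmpr1b rose by 2.88.

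**Figure D2:**
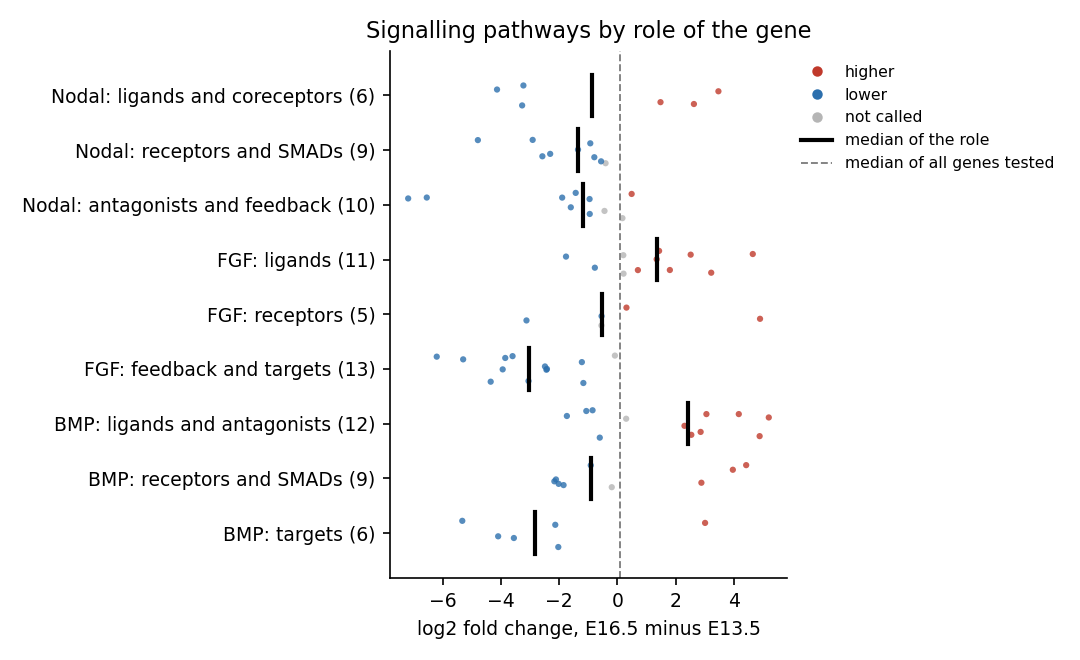
Log2 fold changes (E16.5 minus E13.5) of genes of 3 signalling pathways, 1 point per gene, with the number of genes tested in brackets. Black bars are medians of a role and the dashed line is the median of all genes, 0.07. The Nodal target factors and convertases, with 4 higher and 3 lower of 8, are not drawn. FGF feedback genes and BMP targets have medians of -3.05 and -2.85. FGF ligands and BMP ligands and antagonists have medians of 1.35 and 2.42, which become 0.21 and -0.86 when only genes with a mean of at least 100 are tested.

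Pluripotency genes fell in most cases. Of 37 tested, 30 fell and 5 rose, with a median of -2.44. The transcription factor genes counted 17 lower and 3 higher of 20. Nanog went from 4006, 3627 and 3214 normalized counts to 182, 293 and 239 (-3.94, SE 0.16, adjusted p = 1.3e-08). Sox2 went from 4084, 4154 and 4376 to 262, 355 and 353 (-3.71, SE 0.12), and Mycn, a MYC family gene of dividing stem cells, from 22373, 21862 and 22313 to 515, 802 and 832 (-4.98, SE 0.16). Pou5f1 changed less, from 13346, 13145 and 13276 to 6790, 7197 and 7254 (-0.91, SE 0.06, adjusted p = 3.7e-07). None of the 4 overlapped between the stages.

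Further falls in this group were those of L1td1, an RNA-binding protein gene, from 2127, 2396 and 2490 to 11.5, 35.3 and 22.2 (-6.74, SE 0.33), and of Tdh, an enzyme of threonine breakdown in mouse stem cells, from 10794, 10884 and 11406 to 314, 346 and 327 (-5.06, SE 0.07). The factors Otx2, Klf5 and Prdm14 fell by 4.80, 3.92 and 3.83. Not every member followed. Klf4 was at 137, 162 and 146 normalized counts at E13.5 and at 417, 391 and 435 at E16.5 (1.48, SE 0.15), and Tfcp2l1 rose by 0.73 (SE 0.12). Tbx3 rose by 1.78 (SE 0.35) but stayed below 50 normalized counts.

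Factors that specify primordial germ cells or guide them to the gonad counted 17 lower and 1 higher of 19, with a median of -1.50. The specification factors Prdm1 and Tfap2c fell by 2.45 (SE 0.09) and 2.63 (SE 0.08). Kit, the receptor for stem cell factor, went from 8113, 7487 and 6229 to 2954, 2758 and 2700 normalized counts (-1.37, SE 0.10). The surface genes Cdh1 and Ifitm3 fell by 3.54 and 3.48. The single gene that rose was Dnd1, which codes for an RNA-binding partner of NANOS2, at 31864, 34612 and 36638 against 74414, 70585 and 63749 (1.02, SE 0.09, adjusted p = 2.0e-06). Cxcr4, a receptor in migration, was not called (-0.54, adjusted p = 0.050), although its values at E16.5 (82.1, 64.2 and 93.4) lay below those at E13.5 (117, 107 and 122), and without E16.5 library 4 it was called (-0.66).

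RNA-binding genes of the germ line fell more often than they rose, 30 lower (71.4%) and 7 higher of 42. Of all genes with means of 1000 to 3000, 62.8% fell. Nanos2, a translational regulator of the male fate, was at 635, 681 and 649 normalized counts at E13.5 and at 428, 596 and 630 at E16.5 and was not called (-0.27, adjusted p = 0.12) except with poscounts factors (-0.41). Of its exon length 49.0% overlaps another gene. Nanos3 fell by 0.61, a call that was lost with equal totals (-0.10), and Dazl, a meiotic competence factor, went from 142605, 135065 and 139453 to 33424, 39372 and 35063 (-1.95, SE 0.08). Elavl2 and Igf2bp3 fell by 2.88 and 2.79. Celf2 and Msi2, a splicing and a translation regulator, rose by 2.79 (SE 0.09) and 2.34 (SE 0.20).

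The cell cycle was examined from its entry to its exit. Of 19 genes for G1 cyclins, their kinases and E2F factors, 16 fell and 3 rose, with a median of -2.06. Ccnd1 and Ccne1 start the passage from G1 to S phase. Ccne1 went from 5850, 5169 and 5863 normalized counts to 313, 319 and 287 (-4.19, SE 0.09, adjusted p = 7.2e-10), and Ccnd1 from 600, 769 and 854 to 69.7, 78.1 and 82.3 (-3.24, SE 0.17). The D-type cyclin Ccnd2 differed, with 571, 621 and 644 at E13.5 and 1662, 1567 and 2388 at E16.5 (1.59, SE 0.15). Of 10 genes for E2F and DP factors, 8 fell and 2 rose, with a median of -2.20. E2f8 went from 974, 997 and 999 to 6.68, 26.0 and 26.1 (-5.80, SE 0.43, and -5.19 without E16.5 library 1), whereas E2f6, a repressor of germ line genes in somatic cells, went from 4611, 4386 and 4370 to 12307, 11818 and 10413 (1.37, SE 0.08). In each of these genes the stages did not overlap. Cdc25a, Cdk6 and Cdk2 fell by 2.64, 2.47 and 1.13.

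Inhibitors of cyclin-dependent kinases are given by class, but each inhibitor class holds too few genes to show a difference between classes. Of all genes tested, 42.7% rose and 39.2% fell. Genes of the CIP/KIP class gave 0 higher and 2 lower of 3, those of the INK4 class 2 higher and 1 lower of 4, and those for retinoblastoma-like pocket proteins and their partners 0 higher and 7 lower of 8. Cdkn1a (p21) went from 1817, 1972 and 2149 normalized counts to 276, 294 and 373 (-2.66, SE 0.13, adjusted p = 3.6e-08). Cdkn1b (p27) was at 108, 106 and 65.2 at E13.5 and at 72.5, 80.9 and 89.4 at E16.5, which overlap (-0.16, adjusted p = 0.58). The 2 that rose were of the INK4 class, and neither rose by 2-fold. Cdkn2b (p15) lay at 378, 378 and 417 against 736, 600 and 688 (0.78, SE 0.12, adjusted p = 1.4e-04), and Cdkn2c (p18) rose by 0.53 (SE 0.19, adjusted p = 0.022). The call of Cdkn2c was lost without E13.5 library 3 (0.44), without E16.5 library 4 (0.45) and with poscounts factors (0.40). The pocket protein genes Rb1 and Rbl1 fell by 1.73 and 2.37, and Rbl2 was not called (0.28, adjusted p = 0.27) except without E13.5 library 1 (0.50) or with equal totals (0.78). These are transcript levels, and protein levels were not measured.

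The DNA replication machinery moved almost entirely one way. Of 54 genes, 52 fell and 0 rose, 43 of them by at least 2-fold, and the median was -1.71. With libraries scaled to equal totals the count was 49 lower and 4 higher. Licensing begins when Cdc6 and Cdt1 load the MCM helicase onto origins. Mcm2, a helicase subunit, went from 48172, 43568 and 46284 normalized counts to 7233, 8020 and 6956 (-2.64, SE 0.08, adjusted p = 2.0e-09). Cdc6 went from 3660, 3353 and 3799 to 520, 514 and 394 (-2.93, SE 0.12), and Gmnn (geminin), the inhibitor of Cdt1, from 8238, 8440 and 8380 to 918, 789 and 889 (-3.27, SE 0.08). Enzymes that supply nucleotides fell too, with -3.14 (SE 0.08) for Tyms and -3.37 (SE 0.09) for Tk1. The 2 genes not called were Recql4 (0.23, adjusted p = 0.064) and Prim2 (-0.02, adjusted p = 0.87), and Prim2 was at 5493, 5564 and 5785 against 6344, 5471 and 4925. Without E16.5 library 1, Recql4 was called higher (0.34), as it was with TMM factors (0.38).

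Mitotic genes gave 59 lower and 3 higher of 63, with a median of -2.05, and 47 of them fell by at least 2-fold. Cdk1, the mitotic kinase, went from 11592, 11604 and 11448 normalized counts to 1066, 1039 and 1174 (-3.40, SE 0.07, adjusted p = 7.1e-10). Mki67, the proliferation marker, went from 1831, 1515 and 1698 to 128, 219 and 139 (-3.41, SE 0.19), and Ube2c, which helps to destroy mitotic cyclins, from 25732, 25499 and 25063 to 1658, 1803 and 2120 (-3.78, SE 0.09). The E16.5 libraries were lower throughout. The deepest fall in this list was that of Fbxo5, an inhibitor of the anaphase-promoting complex, at 9128, 9056 and 9143 against 462, 510 and 360 (-4.37, SE 0.12). The kinetochore and spindle genes counted 32 lower and 0 higher of 33. The member not called was Cenpe, a kinetochore motor, at 6101, 5963 and 6508 against 5754, 6757 and 6044. Genes that rose were the phosphatase Cdc25b, from 536, 476 and 494 to 2146, 2149 and 1827 (2.02, SE 0.10), and, with smaller changes, Pttg1 (securin, 0.84) and Pkmyt1 (0.57).

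Promoter stretches of members of these 2 lists are shown because the lists moved together. They come from RefSeq windows on GRCm38.p6 that run from 250 bases before a gene's start to 50 bases after it, and a window was found for 13184 of the genes tested. Capitals mark the words searched on both strands, TTTCCCGC or TTTGGCGC for E2F and TTTGAA for the cell cycle homology region (CHR).
Cdc6, chr11:98907983-98908050, plus strand: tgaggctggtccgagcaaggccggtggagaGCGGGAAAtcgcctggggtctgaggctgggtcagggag
Mcm6, chr1:128359715-128359845, minus strand: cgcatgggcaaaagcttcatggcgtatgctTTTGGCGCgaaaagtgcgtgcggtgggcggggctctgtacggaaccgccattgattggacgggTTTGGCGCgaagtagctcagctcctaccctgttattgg
Cdk1, chr10:69352913-69353013, minus strand: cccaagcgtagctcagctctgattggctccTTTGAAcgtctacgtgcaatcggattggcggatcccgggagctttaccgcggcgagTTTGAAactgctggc
Mki67, chr7:135716442-135716525, minus strand: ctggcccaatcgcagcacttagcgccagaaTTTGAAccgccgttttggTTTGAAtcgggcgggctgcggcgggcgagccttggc
Ube2c, chr2:164769870-164769928, plus strand: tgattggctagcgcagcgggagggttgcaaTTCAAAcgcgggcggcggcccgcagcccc

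An E2F word stood in the windows of 13 of 43 replication genes (30.2%) and of 5 of 14 genes of the G1 and E2F list (35.7%), against 3.02% of all 13184 windows. A CHR word stood in 34 of 52 mitotic windows (65.4%), against 14.9% of all. In the stretches printed, Cdk1 and Mki67 each hold 2 copies and Ube2c holds the word on the opposite strand, read as TTCAAA. Mcm6 holds 2 E2F words, and its transcript fell by 2.04 (SE 0.08). Over all genes with a window, the 398 with an E2F word had a median log2 fold change of -0.60 and 59% of them fell, against 0.10 and 40.1% for the 12786 without. For the CHR word the medians were 0.13 with it and 0.07 without. A word is a match of letters and not a measured binding site.

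**Figure D3:**
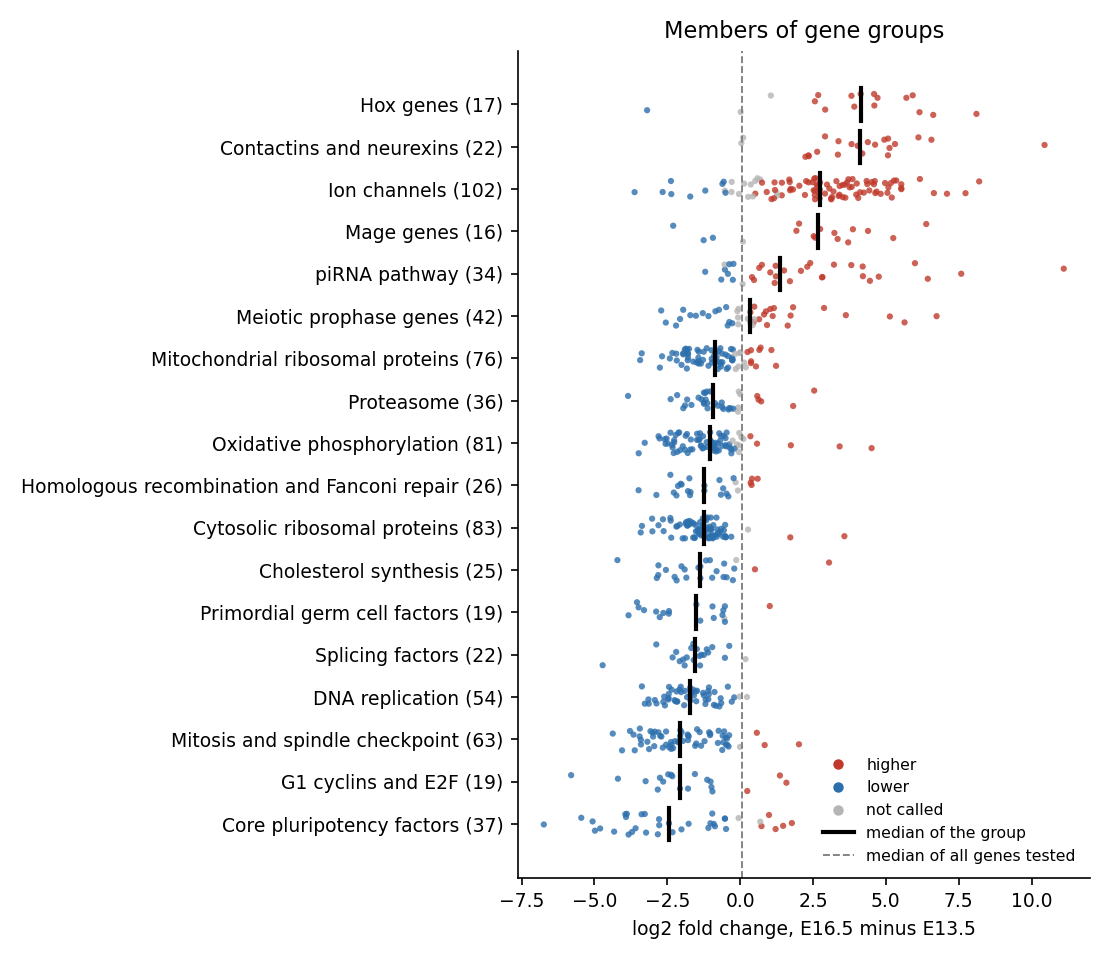
Log2 fold changes (E16.5 minus E13.5) of the members of 18 gene groups, 1 point per gene tested, with the number tested in brackets; black bars are group medians and the dashed line is the median of all genes, 0.07. Groups of the cell cycle and of pluripotency lie at the bottom, with medians of -2.44 to -1.71, and the piRNA pathway, with a median of 1.37, lies among those above the line.

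Genes of growth metabolism were lower in most cases, as were highly expressed genes in general. Of all genes with means of 3000 to 10000, 66.3% fell, and of those at 10000 or above 65.5% did. Of 83 cytosolic ribosomal protein genes 80 fell and 2 rose, with a median of -1.25. The 2 that rose are relatives of general subunits, Rpl10l, with 2413, 2592 and 2609 normalized counts at E13.5 and 8656, 7949 and 8523 at E16.5 (1.72, SE 0.07), and Rpl3l, with 63.3, 88.1 and 90.4 against 1070, 924 and 901 (3.58, SE 0.17). Rpl10, from which Rpl10l derives, went from 10364, 10801 and 11036 to 877, 974 and 1197 (-3.41, SE 0.11), and 33.5% of its 50-base words also occur in other genes. Splicing factor genes gave 21 lower and 0 higher of 22. Mitochondrial ribosomal proteins gave 60 lower (78.9%) and 9 higher of 76, and the proteasome 27 lower (75.0%) and 5 higher of 36. Their medians, -0.85 and -0.95, lie closer to those of highly expressed genes.

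Oxidative phosphorylation genes encoded in the nucleus counted 69 lower and 5 higher of 81, with a median of -1.02, and the falls covered every complex. Complex I had 32 lower of 36, complexes II and III 12 of 13, complex IV 11 of 16 and complex V 14 of 16. Atp5f1, a subunit of ATP synthase, went from 28667, 28066 and 27871 normalized counts to 2388, 2402 and 2808 (-3.48, SE 0.08). The cytochrome oxidase gene Cox7b2, a testis form, rose from 57.0, 45.7 and 52.6 to 528, 510 and 651 (3.42, SE 0.18). Glycolysis was less one-sided, with 13 lower (54.2%) and 8 higher of 24, a share no larger than that of highly expressed genes. Ldha rose by 1.45 and Aldoc by 2.63. Ckb, the brain form of creatine kinase, showed one of the lowest changes, from 36586, 39412 and 42690 to 954, 874 and 1020 (-5.38, SE 0.08, adjusted p = 2.1e-10).

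Cholesterol synthesis genes fell in 22 of 25 cases and rose in 2. Lss and Sqle, enzymes of the pathway, fell by 2.86 and 2.55, and Srebf2, its main transcription factor, by 1.36. Serine and one-carbon metabolism gave 12 lower (63.2%) and 5 higher of 19, a share no larger than that of highly expressed genes. Mthfd1 and Mat2a, which make folate intermediates and S-adenosylmethionine, fell by 3.61 and 3.09, whereas Mtr, methionine synthase, rose from 9083, 7686 and 7741 to 19505, 20463 and 18467.

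Genes of the piRNA pathway rose in most cases. Of 34 members 25 rose and 7 fell, with a median of 1.37. The role that holds PIWI proteins and their nuclear partners gave 11 higher and 1 lower of 12, with a median of 4.01, or 3.52 when the gene at the floor is taken at its bound.

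Spocd1, a partner of the nuclear PIWI protein in piRNA-directed DNA methylation, had the highest log2 fold change of the comparison. It is annotated on GRCm38 at chr4:129929249-129957115, plus strand, and went from 21.1, 7.62 and 6.31 normalized counts to 25530, 26257 and 22267 (11.11, SE 0.34, adjusted p = 2.6e-09). Piwil4, which codes for that nuclear PIWI protein (MIWI2), went from 593, 456 and 492 to 32797, 37200 and 28776 (6.0, SE 0.12). Tdrd9, a helicase gene of the same branch, went from 252, 233 and 240 to 20815, 23387 and 19190 (6.44, SE 0.09). No E16.5 library overlapped an E13.5 library in any of the 3. Tex15, another factor of nuclear silencing, rose by 3.82 (SE 0.07) and Gtsf1 by 4.21 (SE 0.09). Piwil2 (MILI), which was already present at E13.5 with 9208, 8077 and 7415, rose to 34744, 38108 and 31938 (2.09, SE 0.10).

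The biogenesis genes gave 9 higher and 2 lower of 12. Mael went from 14585, 14839 and 13698 normalized counts to 82000, 73928 and 72713 (2.41, SE 0.08), and Henmt1, the methyltransferase of piRNA ends, rose by 4.76 (SE 0.10) to 3849, 3685 and 3355. Fkbp6, a cochaperone of the pathway, went from 25446, 26035 and 28165 to 85475, 71747 and 70113 (1.51, SE 0.09). Genes for Tudor proteins and germ granules, the scaffolds on which PIWI proteins gather, were divided, with 5 higher and 4 lower of 10. Tdrd1 went from 2671, 2416 and 2457 to 17729, 19299 and 16000 (2.81, SE 0.08), while Tdrd12 fell by 0.65 (SE 0.07).

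Promoter stretches of 3 piRNA genes are shown because 9 of the 24 piRNA genes with a window (37.5%) hold the E-box word CACGTG, against 11% of all windows. The word reads the same on both strands and is in capitals.
Tdrd1, chr19:56826168-56826208, plus strand: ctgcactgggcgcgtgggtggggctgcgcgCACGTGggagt
Mael, chr1:166238932-166238994, minus strand: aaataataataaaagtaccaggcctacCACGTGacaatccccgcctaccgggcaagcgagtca
Fkbp6, chr5:135350046-135350175, minus strand: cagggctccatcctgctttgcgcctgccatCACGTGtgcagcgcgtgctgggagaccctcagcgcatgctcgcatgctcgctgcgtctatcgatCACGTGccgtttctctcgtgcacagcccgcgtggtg
Fkbp6 holds 2 copies. The share was also above that of all windows in lists that mostly fell, with 4 of 14 genes of the G1 and E2F list (28.6%), 4 of 17 cholesterol synthesis genes (23.5%) and 8 of 43 replication genes (18.6%), and among meiotic genes, 9 of 33 (27.3%). Over all genes with a window the word went with no large difference, since the 1450 genes that hold it had a median log2 fold change of -0.05 and the rest 0.09.

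**Figure D4:**
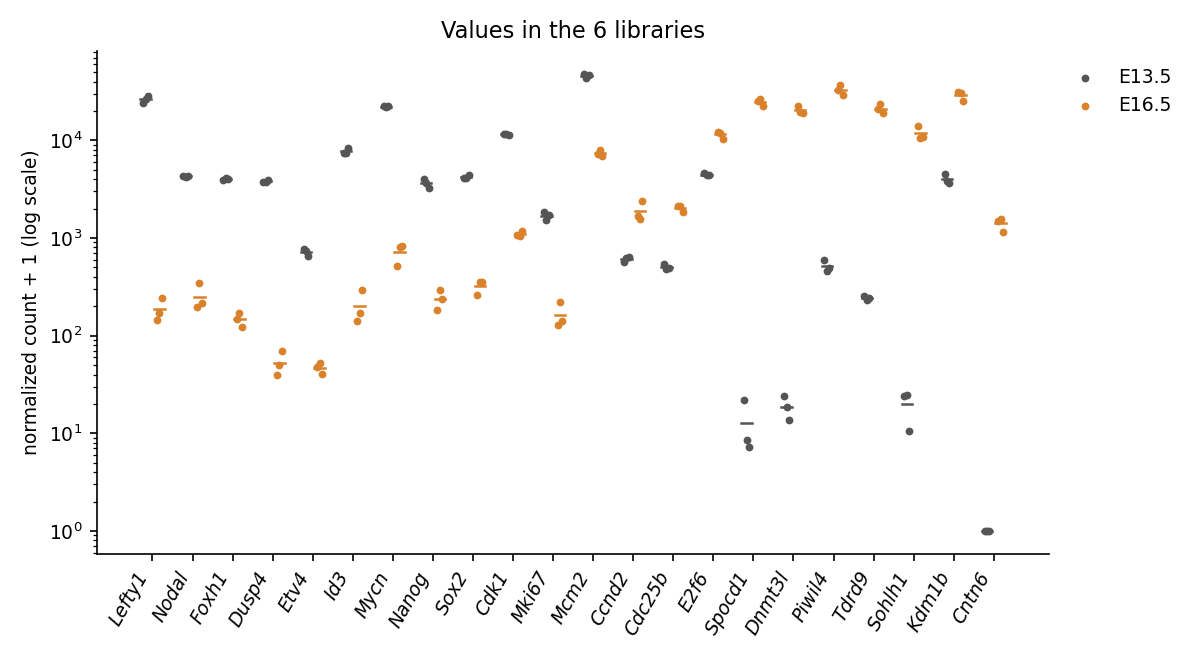
Normalized counts plus 1 on a log axis for 22 genes described in the text, 1 point per library and a bar for the stage mean, E13.5 in grey and E16.5 in orange. Lefty1 at the left falls from 24378 or more to 242 or less, and Spocd1, Dnmt3l and Sohlh1 rise from below 25 to above 10000; in none of the genes shown do the stages overlap.

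DNA methyltransferases changed by role. The 4 de novo enzymes and cofactors, which place new methylation, all rose, with a median of 4.65. Dnmt3l, a cofactor without enzyme activity, went from 23.2, 17.4 and 12.6 normalized counts to 22397, 19541 and 19086 (10.12, SE 0.19, adjusted p = 5.9e-10). Dnmt3a went from 5427, 5170 and 5165 to 57584, 52667 and 48163 (3.33, SE 0.08). Dnmt3c, which acts on young transposons in male germ cells, went from 48.6, 18.5 and 45.2 to 2341, 2303 and 2049 (5.97, SE 0.31), and 23.6% of its 50-base words also occur in another gene. Dnmt3b, its close paralog, had the smallest rise, 0.99 (SE 0.20). No values of the 4 genes overlapped between the stages.

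Of 7 maintenance genes, which copy methylation after replication, 6 fell and 0 rose. Dnmt1 went from 12870, 11467 and 11913 to 3605, 5001 and 4256 (-1.51, SE 0.11), and Hells, a remodeller that aids methylation, from 47822, 44844 and 41078 to 5075, 5720 and 5053 (-3.08, SE 0.08). Uhrf1, which brings Dnmt1 to new DNA, fell by 1.97, and 15.4% of its words also occur elsewhere. The TET genes, whose products oxidise methylcytosine, differed among themselves. Tet1 went from 5871, 5911 and 6137 to 279, 373 and 386 (-4.12, SE 0.12), Tet3 from 36.9, 21.8 and 41.0 to 547, 584 and 568 (4.10, SE 0.25), and Tet2 was not called (0.09, adjusted p = 0.70) except without E16.5 library 1 (0.36) or with equal totals (0.60).

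Histone modifiers showed no common direction. Of 16 writers of H3K9 methylation and their cofactors, 4 rose and 10 fell. Ehmt2 (G9a) went from 7880, 7829 and 7783 normalized counts to 19470, 20652 and 18706 (1.32, SE 0.06), whereas Ehmt1, whose product pairs with G9a, went from 2899, 2540 and 2495 to 717, 1106 and 996 (-1.51, SE 0.15). Trim28 and Setdb1, which silence transposons with zinc finger proteins, fell by 1.11 and 0.89. The HP1 gene Cbx1, a reader of H3K9 methylation, fell by 3.62. Among histone demethylases, a group not limited to H3K9 here, Kdm1b, needed for imprints in oocytes, went from 4537, 3811 and 3648 to 30874, 30816 and 25481 (2.86, SE 0.10). Kdm4a rose by 2.30 and Kdm4c fell by 1.84.

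Polycomb genes gave 7 higher and 20 lower (57.1%) of 35. Of all genes with means of 1000 to 3000, 62.8% fell, so the list shows no direction beyond its level. Ezh2 and Ezh1 are the alternative methyltransferases of complex 2. Ezh2 went from 7135, 6740 and 7066 normalized counts to 1430, 1763 and 1702 (-2.10, SE 0.09), and Ezh1 from 4578, 4302 and 4340 to 13039, 13590 and 11145 (1.51, SE 0.08). Each was without overlap and the directions were opposite. Suz12, the subunit that both need, fell by 2.58, and Phc2 of complex 1 rose by 1.84.

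Genes of male germ cell differentiation gave 12 higher and 6 lower of 19. Tex101, a germ cell surface protein gene, went from 1070, 1171 and 1141 normalized counts to 17537, 14919 and 14759 (3.80, SE 0.08), and Ddx25, a helicase gene, from 6208, 6409 and 6437 to 46084, 40816 and 39242 (2.72, SE 0.07). Factors of later spermatogonia did not move together. Sohlh1 and Sohlh2 code for partner helix-loop-helix factors. Sohlh1 went from 23.2, 23.9 and 9.46 to 13937, 10549 and 10903 (9.31, SE 0.30, adjusted p = 3.2e-09), and Sohlh2 from 17326, 16720 and 16834 to 699, 725 and 767 (-4.54, SE 0.07, adjusted p = 1.5e-10). Neither overlapped, so the E16.5 libraries were high for one partner and low for the other.

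Genes of the GDNF pathway, which keeps stem spermatogonia, were likewise mixed. The receptor gene Gfra1 went from 21.1, 30.5 and 17.9 normalized counts to 180, 183 and 154 (2.88, SE 0.28), while Ret, the kinase it pairs with, went from 1421, 1414 and 1411 to 582, 704 and 534 (-1.23, SE 0.11). The pathway targets Bcl6b and Lhx1 rose by 5.41 (SE 0.37) and fell by 5.47 (SE 0.23). Zbtb16, a stem cell factor, rose by 1.86 (SE 0.38) and stayed below 100 normalized counts. The 13 GDNF receptors and targets counted 7 higher and 5 lower.

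Meiotic prophase genes, whose products act in females at these ages and in males only after birth, counted 19 higher (45.2%) and 15 lower (35.7%) of 42. These shares are near the 42.7% and 39.2% of all genes tested, so the list as a whole shows no direction of its own. Its median of 0.35 turned negative when only genes with a mean of at least 100 were tested. Stra8, the gate of meiosis, was at 154, 106 and 115 normalized counts at E13.5 and at 435, 441 and 433 at E16.5 (1.82, SE 0.18). Rnf212, a crossover factor, went from 34.8, 31.6 and 17.9 to 1181, 908 and 896 (5.14, SE 0.26), and Spo11, which cuts DNA to start recombination, rose by 1.63 (SE 0.18). The synaptonemal complex genes Syce2 and Sycp1 went the other way, Syce2 from 10298, 9939 and 10069 to 1511, 1470 and 1660 (-2.71, SE 0.07) and Sycp1 by -1.09 (SE 0.11). Dmc1 and Prdm9 were not called (adjusted p = 0.65 and 0.33). Of 17 retinoic acid genes, 11 rose and 3 fell. Aldh1a2, which makes retinoic acid, rose by 1.54, the receptor gene Rara fell by 1.42, and Cyp26b1, the fetal testis enzyme that destroys retinoic acid, was not called at 23.2, 18.5 and 2.1 against 22.9, 21.4 and 37.2 (1.27, adjusted p = 0.12). Its value was 0.33 without E13.5 library 4, the lowest of the 6, and 1.81, which was called, without E13.5 library 1.

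Cell death genes and the p53 gene also differed. Trp53 went from 16812, 17111 and 18394 normalized counts to 951, 1179 and 1085 (-4.03, SE 0.09, adjusted p = 8.1e-10), and Trp63, a relative of Trp53, from 87.6, 74.0 and 74.7 to 882, 624 and 653 (3.16, SE 0.18). Of 17 genes that promote death, 11 fell and 5 rose. Bax fell by 2.57 (SE 0.07). Among survival genes, Bcl2l1 went from 4989, 5130 and 4825 to 12099, 11178 and 10380 (1.17, SE 0.07) and Mcl1 from 8331, 7754 and 8548 to 1915, 2105 and 2125 (-2.0, SE 0.07).

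Several families known from differentiated tissues held genes that were at the floor at E13.5 and had reads at E16.5. Here the filter matters, because a gene at the floor at E13.5 was tested only if it was above 10 at E16.5, so the counts of such families describe the members that passed and support no statement about the family. Of 39 Hox genes 17 passed, 6 of them at the floor at E13.5. Hoxc9 had 0 reads in each E13.5 library and lay at 294, 247 and 287 normalized counts at E16.5, at least 84.6-fold higher. Hoxa7 went from 6.33, 3.26 and 6.31 to 434, 338 and 345 (5.92, SE 0.31). Hoxa10 was the one that fell, from 79.2, 60.9 and 83.1 to 8.59, 3.72 and 11.1 (-3.19, SE 0.41). Among 22 contactin, neurexin and related neuronal adhesion genes that passed, 9 were at the floor at E13.5. Cntn6 had 0 reads at E13.5 and 1494, 1564 and 1163 normalized counts at E16.5, at least 431-fold higher. Dscaml1 went from 64.4, 78.3 and 57.8 to 2172, 2482 and 2180 (5.08, SE 0.14), and L1cam from 8.44, 8.71 and 3.15 to 465, 579 and 473 (6.12, SE 0.36).

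Of 121 potassium and calcium channel genes 102 passed, of which 80 rose and 9 fell, and 19 were at the floor at E13.5. The muscle calcium channel gene Cacna1s had 0 reads at E13.5 and 396, 258 and 248 normalized counts at E16.5, at least 92.1-fold higher. Of the 14 myosin heavy chain genes that passed, 12 rose and 0 fell. Myh7 was at 0, 0 and 1.05 at E13.5 and at 587, 558 and 541 at E16.5, and Myh2 at 0 in each against 469, 457 and 321. Of their 50-base words, 15.6% and 22.9% also occur in other genes. Of 45 keratin genes that passed 40 rose, 23 of the 45 being at the floor at E13.5. Nme8, Dntt and Akap4, which are not members of these families, belonged to the 20 genes with the highest changes and were at least 294-fold, 279-fold and 318-fold higher.

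Markers of other testis cells were measured beside these families, because the cells were isolated from a mixed tissue and, in bulk samples, fewer cells of a type and less RNA per cell cannot be told apart. The summed germ cell markers lay at 371361 to 388572 normalized counts at E13.5 and at 341824 to 380384 at E16.5, with 5 of 9 higher and 4 lower. Among the lower was Ddx4 (-0.25, adjusted p = 0.025), whose promoter drives the reporter. That call was lost with TMM factors (-0.11), with median-of-ratios factors (-0.07) and without some single libraries, and it was reversed with equal totals (0.26). The 10 markers of peritubular and interstitial cells summed to 258 to 393 at E13.5 and to 2122 to 2622 at E16.5, 9 of them higher. Macrophage markers went from 38.1 to 96.1 up to 1058 to 1250, with 4 of 5 tested higher, most of it Cd68, while Ptprc lay at 0 to 16.6 at E16.5. Erythroid markers went from 68.4 to 443 up to 1791 to 2528, most of it Alas2, with 4 of 5 tested higher and 1 of 7 at 0 in all 6 libraries. Endothelial markers went from 5016 to 5743 down to 3112 to 3756, with 6 of 7 higher and Pecam1, which germ cells also express, lower. Sertoli markers overlapped, at 2762 to 3810 and 2336 to 4135, with 4 of 9 tested higher and 2 lower. The 6 mast cell markers were at 0 at E13.5 and summed to 23.2 to 38.8 at E16.5, and none passed the filter.

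Fetal Leydig markers summed to 732 to 946 at E13.5 and to 827 to 8265 at E16.5, and the highest value was that of E16.5 library 4. In that library Cyp17a1 lay at 2944 normalized counts against 131 and 339 in E16.5 libraries 1 and 3, and Cyp11a1 at 2807 against 284 and 467. Without library 4 of E16.5, 15451 genes were called, 8010 higher and 7441 lower. The count of called members moved by 10 for the Zfp genes and by 3 each for the retinoic acid and imprinted genes, and by at most 2 for every other list described here. The summed markers of peritubular and interstitial cells, macrophages and erythroid cells were higher at E16.5. Most Hox, adhesion, channel, myosin and keratin genes that passed the filter were higher there too. Sums for Sertoli and fetal Leydig cells overlapped between the stages. The endothelial sum was lower because of Pecam1, whose stage mean went from 4618 to 282, while 6 of the 7 endothelial markers were higher. The part of other cells in the rises of those families was not tested.

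**Figure D5:**
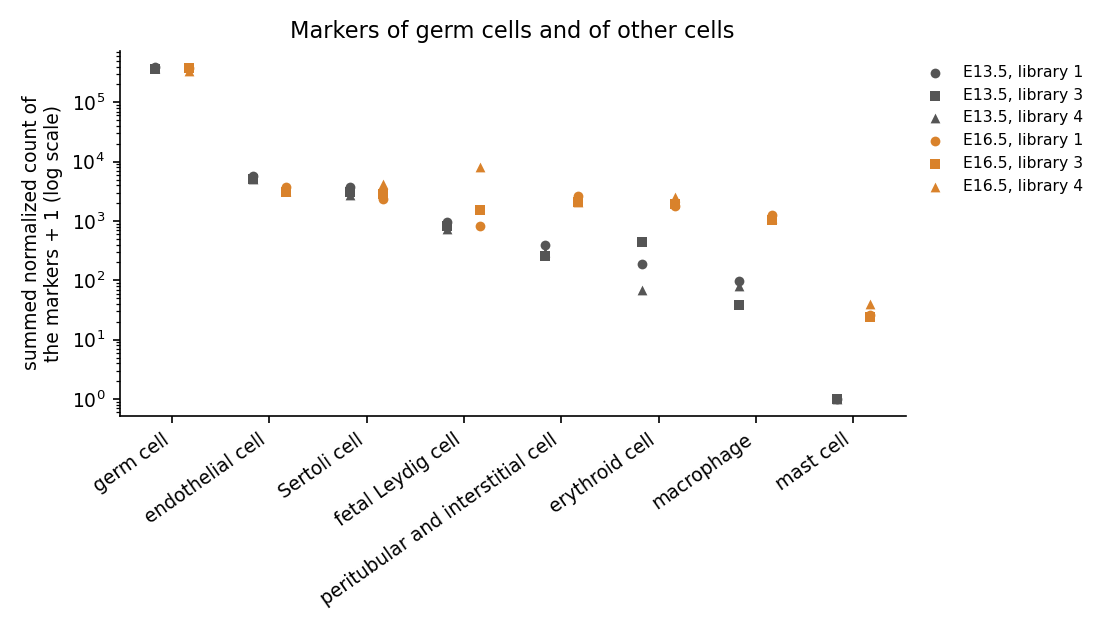
Summed normalized counts plus 1 of the markers of 8 cell types on a log axis, 1 point per library, with shapes for the library number, grey for E13.5 and orange for E16.5. Germ cell markers lie at 341824 or above in each library, interstitial, macrophage and erythroid markers are higher at E16.5, and 1 E16.5 library reaches 8265 for fetal Leydig markers.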

How the data were processed

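Per the labels' protocols, the RNA plus XS kit gave the RNA, and libraries were made with SMART-seq v4, a kit for low input, together with a TruSeq mRNA kit. The submitters' processing notes name bcl2fastq 2.20, cutadapt 1.18, HISAT2 2.1.0, featureCounts 1.5.2, DESeq2 1.26.0 and the builds mm10 and GRCm38. The strand setting and the handling of reads that match several genes are not given in the sources used here. The deposited signal holds reads per gene that the authors counted and then scaled with 1 size factor for each library, as the table's name states (RLE). In each library 100% of values were whole multiples of 1 read within a tolerance of 0.001, so reads were recovered, and the size factors were 0.919 to 0.951 at E13.5 and 1.05 to 1.26 at E16.5.

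Groups were taken from the titles, and columns were matched to stages, not to single samples. Values were tested as log2(normalized count + 1) with limma 3.58.1 (lmFit, eBayes with trend, two-sided) in R 4.3.3, over genes with at least 10 in at least 3 of 6 libraries, with 3 libraries per stage. edgeR 4.0.16 (quasi-likelihood test) and DESeq2 1.42.0 were run on the recovered reads. Further settings were equal totals, factors by TMM, by the median of ratios or by poscounts, a pseudocount of 0.1 or 10, no filter, a minimum mean of 100, a log2 fold change of at least 1, all 12 libraries, leaving out each library, and a block on the numbers in the column heads. Tested on simulated data for this comparison with 18892 genes, limma, edgeR and DESeq2 recovered 94.8%, 95.9% and 92.8% of 97 genes changed 4-fold. Of 98 genes changed 1.5-fold they recovered 26.5%, 26.5% and 29.6%, and they called 2, 3 and 10 unchanged genes. The changed genes were a far smaller share than was called in the real libraries. Their spread was set by a formula and not taken from these libraries, so the shares do not measure the power of the real comparison.

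Members, gene lists and tests were chosen with earlier results of these data known, and 3 names that were wrong, missing or repeated were taken out of the lists after the table was read. Lists are described by counts and medians only. Genes named are Morc1, list members, the 20 highest and 20 lowest changes among called genes whose higher stage had a mean of 100 or more and that did not overlap, and members of the 10 highest and 10 lowest symbol families. Some genes that this rule selects are not reported here. Symbols matched 55141 of 55487 identifiers, and positions came from GENCODE M21 on GRCm38. Shared words are the 50-base stretches of a gene's transcripts found in another gene. Promoters came from RefSeq on GRCm38.p6. Other steps ran in Python 3.11.15 (matplotlib 3.10.9, pandas 2.3.3, numpy 2.4.6).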

Additional observations from a re-analysis of the deposited data

How the results depend on the processing

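The column heads number the libraries 1, 3 and 4 at both stages, and the labels number the replicates otherwise. Same-numbered libraries did not deviate together (correlations of -0.011, -0.0058 and -0.0091 over 19476 genes), and no library correlated best with its own number. A replicate block on these numbers, added after seeing the data, gave 15801 calls, 8258 higher and 7543 lower, and changed the call of no gene named. Without the block limma called 15942 genes. edgeR called 15952, of which 15812 were shared, and DESeq2 15671, of which 15589 were shared. Leaving out each library in turn gave 15431 to 15519 calls, with 7956 to 8167 higher and 7352 to 7519 lower. With only genes of a mean of at least 100 tested, 4280 of 12537 genes were called higher, and with a log2 fold change of at least 1 required, 4862 genes were called lower; fewer genes can pass in each by construction. Pseudocounts of 0.1 and 10 gave 15711 and 16234 calls, no filter 19554 and a fit of all 12 libraries of the series 16082. With equal totals 256 genes called in both had the opposite direction.

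Of 193 genes named in the text, 174 lost or reversed no call under any of 19 alternatives. Reversals with equal totals were those of Ddx4 (0.26), and, not called as reported, of Cenpe (0.50, and 0.18 with median-of-ratios factors), Dmc1 (0.45) and Prim2 (0.49). The median of the Zfp genes became 0.10 with equal totals. With a mean of at least 100, the medians of imprinted genes (-0.37), meiotic prophase genes (-0.060) and BMP ligands and antagonists (-0.86) changed sign. Which scaling is nearest to the RNA content of the cells was not tested. Of genes with a mean under 30 normalized counts 1090 of 3765 were not called, and of those from 30 to 100, 751 of 3174. What depth limits was not tested by thinning.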

Other observations

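Symbol families of at least 8 genes tested numbered 273. The families with the lowest medians were RNA exosome genes (Exosc), with 8 lower and 1 higher of 9 and a median log2 fold change of -2.23, SMAD genes, with 7 lower and 1 higher of 8 (-1.87), and the mitochondrial Chchd genes, with 7 lower and 0 higher of 8 (-1.85). Exosc7 went from 11207, 11835 and 12453 normalized counts to 1785, 1754 and 1944 (-2.69, SE 0.07). Exosc10, the nuclear exonuclease of that complex, went from 9067, 8600 and 9120 to 15296, 14469 and 12821 (0.67, SE 0.08), so 1 member was high at E16.5 where the rest were low. Mcm genes fell in 10 of 10 cases (median -1.65) and Srsf splicing genes in 10 of 11 (-1.37).

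Melanoma antigen (Mage) genes gave 12 higher and 3 lower of the 16 of 21 that passed the filter. Magea10 went from 68.6, 43.5 and 71.5 to 854, 791 and 740 (3.71, SE 0.21), and Mageh1 from 222, 256 and 191 to 21.0, 56.7 and 72.0 (-2.30, SE 0.40). The X-linked homeobox (Rhox) genes were divided, 8 higher and 10 lower of the 20 of 34 that passed. Rhox10 went from 194, 150 and 121 to 3434, 2664 and 3379 (4.36, SE 0.17) and Rhox9 from 2065, 2176 and 2262 to 138, 151 and 118 (-3.99, SE 0.12), with no overlap in either. Zinc finger genes named Zfp counted 92 higher and 181 lower (52.5%) of the 345 tested. Of all genes with means of 300 to 1000, 48.4% fell. The Zfp median of -0.40 turned positive with equal totals.

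Imprinted genes gave 23 higher and 16 lower of 42. Maternally expressed genes counted 12 higher and 7 lower of 20, with a median log2 fold change of 1.99, and paternally expressed genes 11 higher and 9 lower of 22, with a median of 0.22. The difference between them was not tested. Peg3 went from 8047, 7354 and 7514 to 656, 1043 and 944 (-3.14, SE 0.15) and Mest from 5361, 5167 and 5352 to 603, 601 and 670 (-3.08, SE 0.08). Dlk1, also paternally expressed, went from 87.6, 138 and 109 to 2641, 2233 and 2048 (4.37, SE 0.17), and the maternally expressed long RNA Meg3 of the same locus from 13.7, 19.6 and 8.41 to 406, 400 and 416 (4.85, SE 0.31). Alleles were not measured.

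By kind of gene, 551 of 825 long intergenic RNAs rose and 119 fell, whereas 220 of 1296 processed pseudogenes rose and 652 fell. Of these, 255 long intergenic RNAs and 72 processed pseudogenes were at the floor at E13.5 and were tested only because they were higher at E16.5, so the counts describe the genes that passed the filter. Reads of processed pseudogenes can come from their parent genes. Among protein-coding genes only, those that span at least 300 kb rose in 67.1% of 495 cases and fell in 18.4%. The 3760 protein-coding genes under 10 kb gave 38.8% and 45.5%. Levels differed between these classes, and the part of level in these shares was not tested.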
